A study of Mus musculus with 14 samples.

Results

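Rpl29, the gene of ribosomal protein L29, and the processed pseudogenes Gm8210 and Gm13841, which carry nearly the same sequence, were followed through all 14 libraries. The 3 genes were picked by symbol from the 33939 genes of the deposited table because their levels differed between genotypes in these libraries, so every genotype difference of these genes is given as a description, without a test. The libraries came from brain cells of male C57BL/6 mice, 8 to 12 weeks old, taken 3 days after a controlled cortical impact, a model of traumatic brain injury (TBI), and enriched for the myeloid surface protein CD11b. Ctrl mice were Cx3cr1-CreER+/-, named WT in the library labels although they carry the Cre driver, and cKO mice carried the same driver and were homozygous for a floxed target gene, which tamoxifen-activated Cre deletes in cells that use the Cx3cr1 promoter, such as microglia and macrophages. Mice of both genotypes received tamoxifen. The injured (IL) and the opposite, non-lesioned (CL) hemispheres were sequenced as separate libraries, giving 4 CL and 4 IL libraries of Ctrl mice and 3 CL and 3 IL libraries of cKO mice. All 4 Ctrl mice gave both hemispheres. Among the 4 mouse numbers that the labels give for cKO mice, 791 and 3592 have both hemispheres, 788 only CL and 784 only IL. The last 2 were taken as different animals because their numbers differ, and whether they are was not tested.

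Ribosomal protein L29 is a component of the large (60S) ribosomal subunit, which joins amino acids into protein, and it is also known as a protein that binds heparin at the cell surface. Processed pseudogenes are copies of messenger RNA that were reverse transcribed and inserted elsewhere in the genome, so they lack the introns of their parent gene. Ribosomal protein genes have left many such copies in mammalian genomes, and a short sequencing read from a messenger RNA of this kind can match the parent and several copies equally well.

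Rpl29 (ENSMUSG00000048758, GRCm38 chromosome 9 from 106429454 to 106431568, plus strand) has 4 exons, and its annotated transcript of 710 bases holds 109 bases before, 483 bases within and 118 bases after the coding sequence, stop codon included. Gm8210 (ENSMUSG00000094497, chromosome 1 from 43189156 to 43189638, plus strand) and Gm13841 (ENSMUSG00000083833, chromosome 5 from 115801677 to 115802159, minus strand) are annotated as processed pseudogenes of a single exon and 483 bases each. Gm8210 lies within Fhl2 on the strand opposite to it and touches none of its exons, while no other annotated gene overlaps Gm13841. The sequences of both copies were identical over all 483 bases, and they differed from the Rpl29 coding sequence at 3 positions, counted from 1 at the A of the start codon, namely C72A, C300T and T423C, with the Rpl29 base first. None of the 3 substitutions changed the amino acid encoded in the 160 codons, and the first stop codon in frame of both copies was that of Rpl29. Position 72 lies in exon 3 of Rpl29 (chromosome 9, 106430342), and positions 300 (106431266) and 423 (106431389) lie in exon 4. Bases 21 to 320 of the Rpl29 coding sequence from GENCODE M21 are shown with positions 72 and 300 in capitals, because everything between and around these capitals reads the same in both copies.
Rpl29 bases 21 to 320: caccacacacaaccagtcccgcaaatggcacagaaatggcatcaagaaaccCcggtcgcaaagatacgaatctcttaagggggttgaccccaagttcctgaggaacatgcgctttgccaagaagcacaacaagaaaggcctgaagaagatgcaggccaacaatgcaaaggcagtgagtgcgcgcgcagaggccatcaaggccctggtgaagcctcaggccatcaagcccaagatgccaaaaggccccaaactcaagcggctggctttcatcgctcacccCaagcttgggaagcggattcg

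Of 151 annotated genes whose transcripts aligned with that of Rpl29, 54 were in the deposited table, and 6 copies matched the coding sequence at 99% or more over at least 480 bases. Besides Gm8210 and Gm13841 these were Gm14036 (chromosome 2, within Plcb1 on the same strand, in an intron), Gm6344 (chromosome 13, on the strand opposite to Uimc1, with 416 of its bases in Uimc1 exons), Gm15454 and Gm10709. All 6 copies carried C300T and T423C, and only Gm8210 and Gm13841 among them carried C72A. Among 136 genes of the wider family that cover position 72, 5 had A there, these 2 included. The 41 bases around position 72 are shown for the 5 of these near-identical genes that reached 1 CPM (read count scaled to 1e+06 per library) in any library, with position 72 in capitals, since this base sets the members Gm8210 and Gm13841 apart from Gm14036 and Gm6344.
Rpl29: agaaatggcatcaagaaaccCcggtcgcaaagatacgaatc
Gm8210: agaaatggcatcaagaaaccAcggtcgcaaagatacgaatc
Gm13841: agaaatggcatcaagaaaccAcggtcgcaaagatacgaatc
Gm14036: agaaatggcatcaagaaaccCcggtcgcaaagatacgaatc
Gm6344: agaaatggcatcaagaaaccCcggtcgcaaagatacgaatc
The bases around positions 300 and 423 are shown for Rpl29 and Gm8210, whose capitals mark the base that all 6 copies share against the parent.
Rpl29 around 300: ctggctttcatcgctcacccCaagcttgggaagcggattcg
Gm8210 around 300: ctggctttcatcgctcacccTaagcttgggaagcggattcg
Rpl29 around 423: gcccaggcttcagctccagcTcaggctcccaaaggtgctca
Gm8210 around 423: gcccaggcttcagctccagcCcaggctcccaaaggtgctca

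Few stretches of the coding sequence separate these genes. Of the 434 windows of 50 bases along the Rpl29 coding sequence, 42 were found in no other annotated gene. Each copy also has 434 such windows, of which 284 were identical in Rpl29 and 50 occurred in no gene other than Gm8210 and Gm13841, and no window separated Gm8210 from Gm13841. A read within their 483 bases therefore cannot be assigned to either of these copies alone. Of the 129 windows of the Rpl29 transcript that lie wholly outside its coding sequence, 114 were found in Rpl29 only. Of the 20 values between 0.5 and 100 reads in Rpl29, Gm8210, Gm13841, Gm14036 and Gm6344, 17 (85%) were not whole multiples of 1 read (tolerance 0.03 reads), against 16.5 to 21.5% of all values under 100 reads in a library. How reads that match several genes entered these values was not tested.

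**Figure D1:**
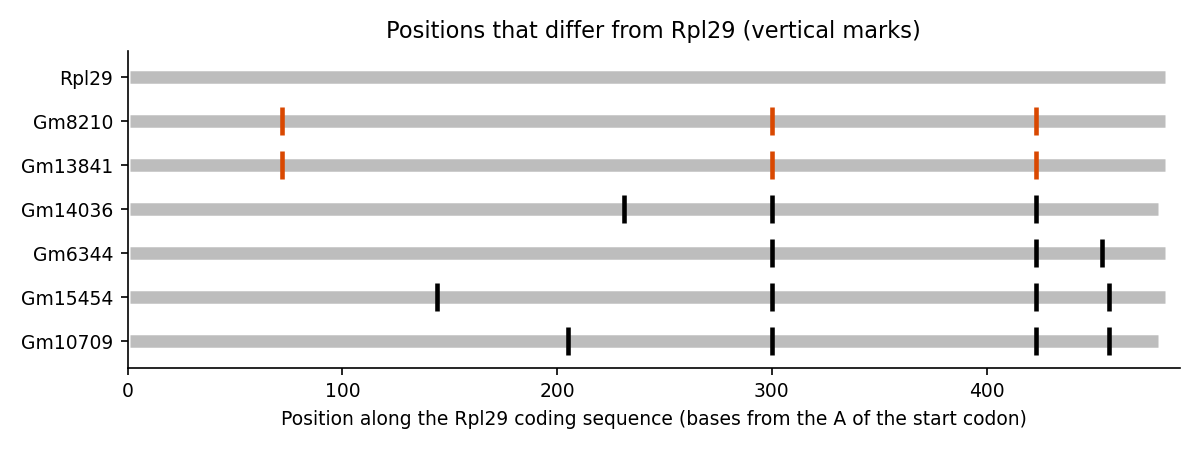
Positions at which the 6 near-identical copies differ from Rpl29, in bases along the coding sequence (x axis), 1 grey line per gene with vertical marks at the differences. All 6 copies share the marks at 300 and 423, and only Gm8210 and Gm13841 have the mark at 72.

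The depth estimated from the step between values was 12.2 to 41.6 M (1e+06) reads per library (median 34.2 M), lowest in the IL library of Ctrl mouse 3546. The summed level of 5 microglial marker genes was 20765 to 28044 CPM in CL and 12003 to 13364 CPM in IL libraries, against 2.48 to 20.3 CPM for 5 neuronal markers, as labelled for a CD11b-enriched myeloid sample. Of the 9 cell type lists, only the 5 oligodendrocyte markers did not overlap between genotypes, at 126 to 193 CPM in Ctrl CL and 80.8 to 113 CPM in cKO CL. They overlapped in IL, and 6.02% of all genes tested were lower in this way in CL. Neutrophil markers were at 504 to 7202 CPM in Ctrl CL against 134 to 873 in Ctrl IL, and at 549 to 1516 CPM in cKO CL against 203 to 320 in cKO IL. Myeloid markers were at 14378.5 to 15409.8 CPM in cKO CL against 10219.5 to 10664.9 in cKO IL. Astrocyte markers were higher in IL of Ctrl mice. The part of these lists in the results was not tested. In such bulk samples, fewer cells of a type and less RNA per cell cannot be told apart.

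Rpl29 stood at 63.3, 59.7, 31.4 and 58.0 CPM in the Ctrl CL libraries of mice 3541, 3545, 3546 and 3551, and at 69.2, 78.1, 11.2 and 71.7 CPM in their IL libraries. In cKO mice it stood at 23.5 (788), 0.965 (791) and 20.2 CPM (3592) in CL, and at 1.42 (784), 1.49 (791) and 35.0 CPM (3592) in IL. All 3 cKO CL libraries were below all Ctrl CL libraries, as was so for 6.02% of all genes tested, whereas in IL the groups overlapped through Ctrl mouse 3546. The means were 53.1 ± 14.6 (SD, n = 4) and 57.6 ± 31.1 (n = 4) in Ctrl CL and IL against 14.9 ± 12.2 (n = 3) and 12.6 ± 19.4 (n = 3) in cKO CL and IL, which is 3.57 times lower in cKO CL and 4.56 times lower in cKO IL. The IL ratio depended on mouse 3592, without whose IL library the cKO IL mean was 1.45 CPM, 39.6 times below Ctrl. Within each genotype the difference between hemispheres was smaller than these SDs. The fitted log2 fold change of cKO over Ctrl, on the scale of log2(CPM + 1), was -2.38 (SE 0.73) in CL and -2.98 (SE 1.04) in IL. It spanned -3.05 to -1.19 in CL and -4.22 to -2.34 in IL when single libraries were left out.

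Gm8210 was close to absent from Ctrl libraries, where its highest value was 0.000551 CPM, less than 1 read in every library. In cKO mice it reached 8.14 (788), 18.03 (791) and 8.92 CPM (3592) in CL and 24.7 (784), 25.6 (791) and 9.04 CPM (3592) in IL. The lowest cKO library stood above every Ctrl library in both hemispheres, and in units of reads the cKO libraries held 230 to 980 reads of this gene. The cKO mean was 11.7 ± 5.50 CPM in CL (n = 3) and 19.8 ± 9.30 CPM in IL (n = 3). The Ctrl reads listed under Gm13841 cannot be assigned to either copy alone, so the genotypes are compared by ratio only for the copies added together.

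Gm13841 followed the same order of groups. It stood at 0.120, 0.115 and 0.496 CPM in the CL libraries of Ctrl mice 3541, 3545 and 3551 and at 0.284 and 0.289 CPM in the IL libraries of mice 3545 and 3551, and it was at less than 1 read in the other 3 Ctrl libraries. In cKO mice it reached 8.79 (788), 14.5 (791) and 6.81 CPM (3592) in CL and 21.2 (784), 17.1 (791) and 13.9 CPM (3592) in IL. Added together, the copies had a cKO mean 119 times the Ctrl mean in CL (21.7 ± 9.40, n = 3, against 0.183 ± 0.216, n = 4) and 260 times in IL (37.2 ± 12.5, n = 3, against 0.143 ± 0.165, n = 4). These ratios rest on few Ctrl reads. Without the libraries of Ctrl mouse 3551 they were 278 in CL and 393 in IL. With Ctrl libraries below 3 reads raised to that floor, which covers counting error only, they were 104 and 165. Both copies were thus without overlap between genotypes in both hemispheres, and over all genes tested 3.97% in CL and 4.84% in IL were higher in this way, shares from which nothing is read here because the genes were chosen on this contrast.

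**Figure D2:**
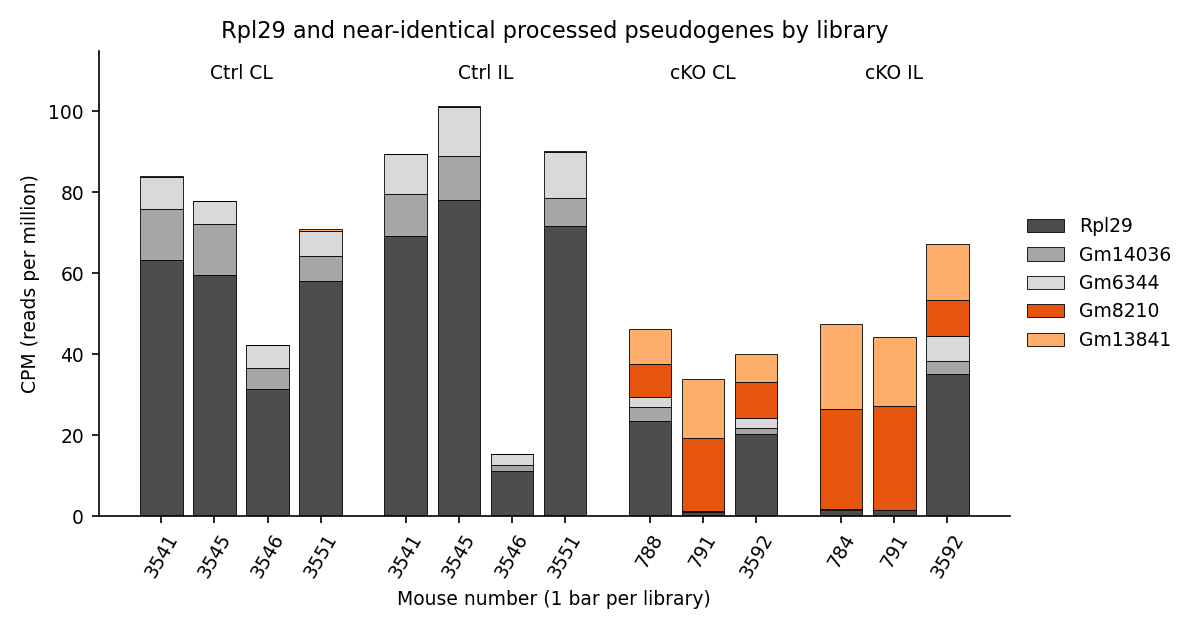
Level of Rpl29 and 4 near-identical processed pseudogenes in CPM (y axis), stacked in 1 bar for each of the 14 libraries, labelled by mouse number and group. Orange segments (Gm8210 and Gm13841) are visible in the 6 cKO libraries only, where they are nearly the whole bar in mice 784 and 791.

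The share of the summed level of the 3 genes that the copies took differed among libraries of the cKO group, while in mice 791 and 3592 the values of both hemispheres lay close together. In Ctrl libraries the copies held 0.848% of the sum at most. In cKO mouse 791 they held 97.1% in CL and 96.6% in IL. In mouse 784 they held 97.0% in IL. In mouse 3592 they held 43.8% in CL and 39.6% in IL. Mouse 788 had 41.9% in CL. The 6 cKO libraries thus lay at 39.6 to 43.8% or at 96.6 to 97.1%, with no library between. Between the 2 copies the reads were split about evenly, Gm8210 taking 39.5 to 59.9% of their sum in cKO libraries. Per kilobase of transcript, which allows levels of different genes to be compared, Rpl29 was at 1.36 CPM per kb in the CL library of mouse 791. There Gm8210 was at 37.3 and Gm13841 at 30.1 CPM per kb. In the CL library of mouse 3592 Rpl29 was at 28.5, Gm8210 at 18.5 and Gm13841 at 14.1 CPM per kb. In that of Ctrl mouse 3541 Rpl29 was at 89.1 CPM per kb. The level of a single copy cannot be set against Rpl29, since reads of both copies cannot be told apart.

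**Figure D3:**
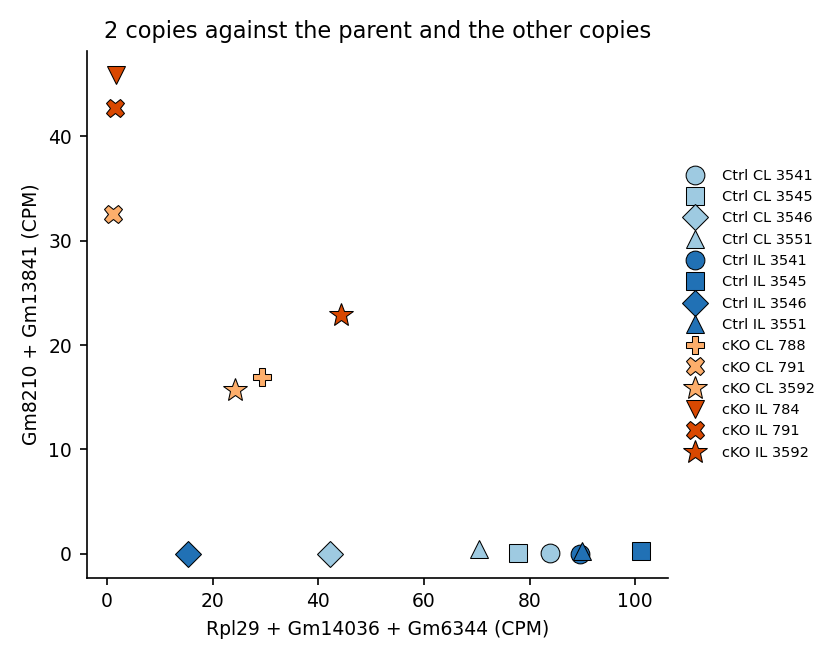
Summed CPM of Gm8210 and Gm13841 (y axis) against summed CPM of Rpl29, Gm14036 and Gm6344 (x axis), 1 point per library, with the colour giving the group and the shape the mouse. The 8 Ctrl libraries lie along the bottom, the libraries of cKO mice 784 and 791 at the left edge, and those of 788 and 3592 between them.

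Adding the reads of parent and copies brought the genotypes closer together. The sum of the 3 genes was 63.4, 59.8, 31.4 and 58.5 CPM in Ctrl CL (mice 3541, 3545, 3546 and 3551), 69.2, 78.4, 11.2 and 71.99 CPM in Ctrl IL, and 40.4 (788), 33.5 (791) and 36.0 CPM (3592) in CL of cKO mice and 47.3 (784), 44.2 (791) and 57.9 CPM (3592) in IL. The cKO libraries lay within the Ctrl range in each hemisphere, and the cKO mean was 0.688 of the Ctrl mean in CL (36.6 ± 3.48, n = 3, against 53.3 ± 14.7, n = 4) and 0.863 in IL (49.8 ± 7.16, n = 3, against 57.7 ± 31.2, n = 4). This overlap rested on Ctrl mouse 3546. Without it the Ctrl sums were 58.5 to 63.4 CPM in CL (60.6 ± 2.55, n = 3) and 69.2 to 78.4 CPM in IL (73.2 ± 4.74, n = 3), above every cKO library, and the difference of cKO from Ctrl in IL went from -7.89 to -23.4 CPM. Within each hemisphere the SD among cKO libraries was 3.48 CPM for the sum and 12.2 CPM for Rpl29 alone in CL, and 7.16 and 19.4 CPM in IL (n = 3 each).

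**Figure D4:**
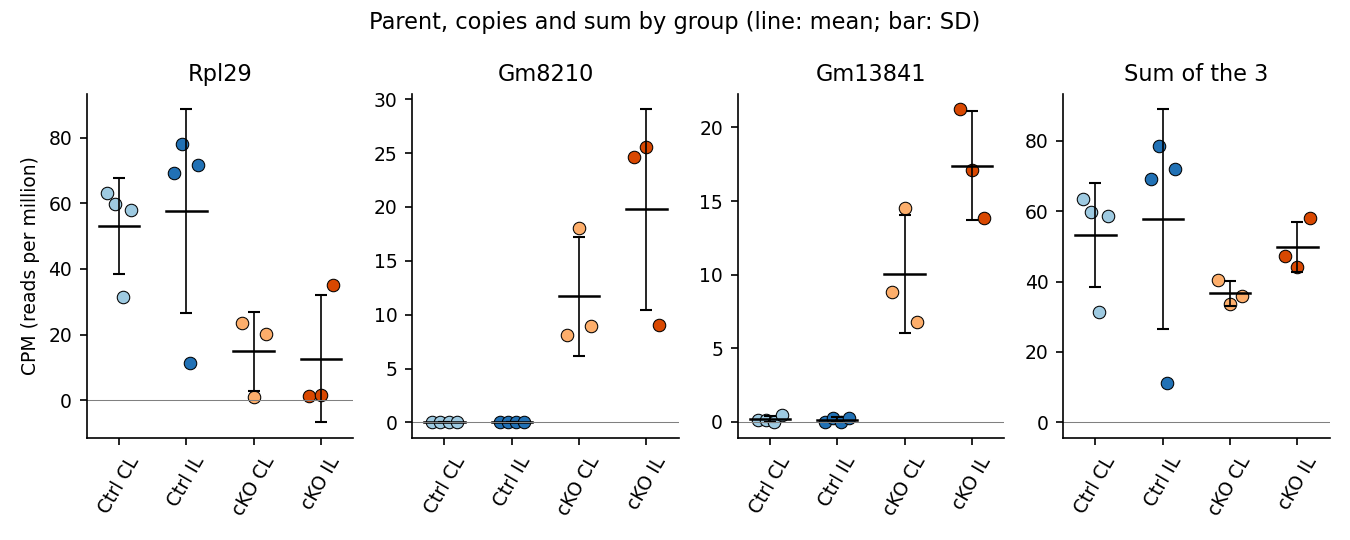
CPM of Rpl29, Gm8210, Gm13841 and their sum (y axis) in the 4 groups, 1 point per library, with a line at the mean and a bar of 1 SD. The copies sit near 0 in both Ctrl groups and at 6.81 CPM or more in every cKO library, while the sums of both genotypes overlap.

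Of the other near-identical copies, Gm14036 and Gm6344 were, like the parent, lower on average in cKO than in Ctrl libraries of both hemispheres. Gm14036 lay between 1.43 and 12.7 CPM in Ctrl libraries and between 0.0413 and 3.44 CPM in cKO libraries. Gm6344 lay between 2.73 and 12.2 CPM in Ctrl libraries, was below 0.1 CPM in the libraries of mice 784 and 791, and stood at 2.41, 2.41 and 6.15 CPM in those of mouse 788, mouse 3592 CL and mouse 3592 IL. Together these 2 copies were 21.4 to 37.0% of the level of Rpl29 in Ctrl libraries and 5.75 to 26.9% in cKO libraries. Uimc1, whose exons overlap Gm6344 on the other strand, was at 32.5 to 54.3 CPM in Ctrl and 27.5 to 39.2 CPM in cKO libraries. The libraries hold no strand information, so Uimc1 reads can match Gm6344. Their part in its values was not tested. Gm15454 and Gm10709 did not exceed 0.541 CPM in any library, and no direction is read from levels so close to the floor. With all 7 near-identical genes added, a sum chosen after the values were seen, the mean was 40.2 ± 6.20 CPM in cKO CL (n = 3) against 68.8 ± 18.6 in Ctrl CL (n = 4), and 53.2 ± 12.5 in cKO IL (n = 3) against 74.3 ± 39.6 in Ctrl IL (n = 4). Without mouse 3546 the Ctrl sums were 70.9 to 84.3 CPM in CL and 89.9 to 101 CPM in IL, above every cKO library. The difference of cKO from Ctrl in IL was -40.8 to -12.1 CPM when single libraries were left out. The other 45 same-strand family members in the table summed to 4.54 to 9.19 CPM in Ctrl and 5.58 to 7.36 CPM in cKO libraries. Among them the transcribed pseudogene 4931440P22Rik, which also has A at position 72, was at 2.88 to 6.23 CPM in Ctrl and 2.91 to 3.78 CPM in cKO libraries.

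The effect of injury was not used to choose the genes and was tested. In Ctrl mice Rpl29 differed between IL and CL by -0.07 on the log2 scale (SE 0.60), with an adjusted p = 0.974 in limma, and it was higher in IL in 3 of 4 mice, the exception being mouse 3546. Without both libraries of that mouse the log2 fold change was 0.37 (limma, adjusted p = 0.253), and over all alternatives the adjusted p was 0.182 to 0.991. Both copies were below the filter for this comparison. In cKO mice the log2 difference was -0.70 with an SE of 1.21 (adjusted p = 0.718, limma), and it was -1.94 to -0.0352 when single libraries were left out, the ends being without mouse 3592 IL and without mouse 788 CL. The CL and IL groups of cKO mice hold different animals in part. The fit with the mouse as a block keeps only mice 791 and 3592, and in it the sign turned, to 0.61 (limma, adjusted p = 0.124). Rpl29 was 1.54 times higher in IL in mouse 791 and 1.73 times higher in mouse 3592. The turn of the sign thus came with a change of libraries. Over all alternatives in cKO mice the adjusted p was 0.124 to 0.989. None of these differences passed the threshold, where limma called 6.61% of genes in Ctrl mice (1082, or 3358 with the mouse as a block) and 22.3% in cKO mice (3738, or 2273 with the block).

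In cKO mice the copies added together, a sum tested after the values were seen, were at 37.2 CPM in IL and 21.7 CPM in CL on average, a difference of 15.4 CPM (two-sided exact permutation test, p = 0.2, n = 3 against 3, where the smallest possible is 0.1). Their sum went from 32.6 to 42.7 CPM within mouse 791 and from 15.7 to 22.9 CPM within mouse 3592. Taken singly, with shared reads divided as in the table, Gm8210 was 0.74 higher in IL than in CL on the log2 scale (SE 0.43), at an adjusted p = 0.253 in limma, and Gm13841 was 0.86 higher (SE 0.27), at an adjusted p = 0.0559. Without the IL library of mouse 3592 Gm8210 passed the threshold (log2 fold change 1.26, limma, adjusted p = 0.0355), and without the CL library of mouse 791 Gm13841 did (1.13, limma, adjusted p = 0.0226). Gm13841 also passed it in a single fit of all 14 libraries (0.88, limma, adjusted p = 0.0479). Over all alternatives the adjusted p was 0.0355 to 0.558 for Gm8210 and 0.0226 to 0.175 for Gm13841. Within mouse 791 Gm8210 went from 18.03 to 25.6 CPM and Gm13841 from 14.5 to 17.1 CPM, and within mouse 3592 Gm8210 went from 8.92 to 9.04 CPM and Gm13841 from 6.81 to 13.9 CPM. The difference in injury change between genotypes was -0.63 (SE 1.44) for Rpl29 on the log2 scale, with an adjusted p = 1 in limma. It is not given for the copies, which were below the filter in Ctrl mice, so that it would only restate their change in cKO mice. In that test 0 of 18476 genes (0%) were called by limma, and 479 had an unadjusted p under 0.05.

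The sum of the 3 genes was higher in every cKO IL library than in every cKO CL library, by 13.2 CPM on average (two-sided exact permutation test, p = 0.1, the smallest that 3 against 3 libraries can give), and it was higher in IL in both mice with 2 libraries, by 10.7 and 21.9 CPM. Of all genes tested in cKO mice, 18.1% were higher in every IL library in this way. In Ctrl mice the sum differed by 4.44 CPM (two-sided exact permutation test, p = 0.8) and by 12.6 CPM without mouse 3546 (exact p = 0.1, the smallest possible with 3 against 3). These permutations took the libraries of the same mouse as unrelated. With the hemispheres of the 4 Ctrl mice paired, an exact sign-flip test gave p = 0.75, where the smallest possible is 0.125. The Ctrl sum was higher in IL in 3 of the 4 mice. The share of the copies differed by 16.8 percentage points between cKO hemispheres (two-sided exact permutation test, p = 1). This difference was 7.16 to 35.9 points when single libraries were left out, the ends being without mouse 784 IL and without mouse 3592 IL. From CL to IL the share fell by 0.491 points within mouse 791 and fell by 4.202 points within mouse 3592.

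Rpl29 was set beside the other 45 large-subunit ribosomal protein genes, a list chosen with earlier results of these data known. Between genotypes their median log2 fold change was -0.18 in CL, against -0.06 for all genes, and 0 of the 45 were higher and 1 was lower, where 0.464% of all genes were called higher and 0.41% lower, and 0.36 in IL, against 0.01 for all genes, and limma called 0 of the 45 (1 with an unadjusted p under 0.05), where 0.662% of all genes were called. The gene that was lower was Rpl34, at 7.36 ± 0.749 CPM in cKO CL (n = 3) against 22.1 ± 4.82 in Ctrl CL (n = 4), a log2 difference of -1.46 with an SE of 0.22 (adjusted p = 0.00875, limma). Without Rpl29, the list spanned -1.46 to 0.10 in CL and -1.45 to 0.75 in IL. Rpl29, which was chosen on this contrast, was at -2.38 in CL and -2.98 in IL. Without the CL library of mouse 791 its CL value was -1.19, inside the range that the list had with all libraries. In cKO mice 31 of the 45 genes were higher in IL (12.8% of all genes) and 1 was lower (9.54% of all genes), with a median of 0.54 against 0.02 for all genes. The largest increases were those of Rpl19 (0.86, SE 0.11, 52.5 ± 1.47 against 30.4 ± 3.10 CPM), Rpl35a (0.84, SE 0.17) and Rpl39 (0.82, SE 0.15), and the decrease was that of Rpl10 (-0.94, SE 0.18). In Ctrl mice 0 were higher (3.65% of all genes) and 1 was lower (2.96% of all genes), again Rpl10 (-0.69, SE 0.16), with a list median of 0.01 against -0.04 for all genes. The injury change was not shown to differ between genotypes, since limma called 0 of the 45 genes in the interaction, 0 of them having an unadjusted p under 0.05, with a list median of 0.50 against 0.04 for all genes. In the Ctrl mice other than 3546 the summed level of the list was higher in IL than in CL, at 2590 against 2493 CPM (3541), 2950 against 2376 CPM (3545) and 2714 against 2484 CPM (3551).

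**Figure D5:**
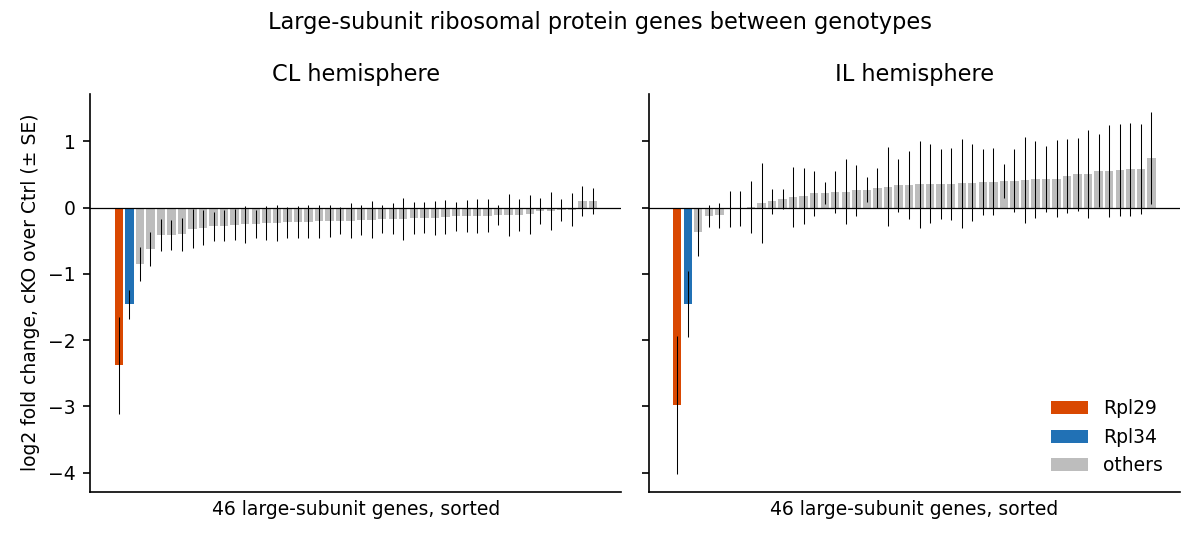
Log2 fold change of cKO over Ctrl with its SE (y axis) for 46 large-subunit ribosomal protein genes sorted by value (x axis), in CL and IL. With all libraries Rpl29 (orange) is the lowest bar in both panels at -2.38 and -2.98, followed by Rpl34 (blue) at -1.46 and -1.45, whereas without the CL library of mouse 791 the CL value of Rpl29 was -1.19.

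The summed level of the list without Rpl29 ran with that of Rpl29 in Ctrl mouse 3546, at 1590 CPM in CL and 1140 CPM in IL against 2376 to 2493 and 2590 to 2950 CPM in the other Ctrl mice. Relative to this list, the sum of Rpl29 and both copies was 1.98 to 2.54% in CL and 0.986 to 2.67% in IL of Ctrl mice, and 1.63 to 2.13% in CL and 1.79 to 2.30% in IL of cKO mice. The overlap rested on mouse 3546. Without it the Ctrl values were 2.35 to 2.54% in CL and 2.65 to 2.67% in IL, above every cKO library of the same hemisphere.

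A like change in the split between parent and copies was looked for in 32 other large-subunit genes with 123 copies named after them in the table. The largest difference between genotypes was that of Rpl34, whose copies Rpl34-ps1 and Rpl34-ps2 held 30.2 ± 4.81% of the common sum in Ctrl CL and 31.3 ± 2.22% in Ctrl IL (n = 4 each) against 73.5 ± 1.10% in cKO CL and 78.9 ± 2.01% in cKO IL (n = 3 each). Rpl34-ps1 was at 19.6 to 21.2 CPM in cKO CL and 26.2 to 34.2 CPM in cKO IL, against 6.45 to 16.1 and 4.12 to 15.4 CPM in Ctrl. Unlike the share for Rpl29, that for Rpl34 was nearly the same in all cKO mice. The next differences were 10.9 points for Rpl35a in CL, 10.9 points for Rpl30 in IL, 5.78 points for Rpl5 in IL and 4.21 points for Rpl7a in IL, the SDs of their groups reaching 8.29, 12.9, 13.1 and 6.20 points. These differences were not tested.

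The genes whose log2 levels followed Rpl29 most closely over the 14 libraries were Gm6344 (Pearson r = 0.98), Gm14036 (0.95), Nipsnap2 (0.95), Spint1 (0.93) and Abhd14b (0.91). These coefficients describe libraries of which 6 mice gave 2 each, with no test. Abhd14b, which encodes an alpha/beta hydrolase, lies 15.9 kb from Rpl29 on chromosome 9 (106447459 to 106452923). It was at 4.61 to 8.58 CPM in Ctrl libraries, at 3.52, 3.45 and 3.42 CPM in the libraries of cKO mice 788, 3592 CL and 3592 IL, and at 0.291, 0.0788 and 0.206 CPM in those of 791 CL, 791 IL and 784. Spint1, a serine protease inhibitor gene on chromosome 2, was at 183 to 297 CPM in Ctrl libraries, at 171, 93.8 and 97.7 CPM in those of 788, 3592 CL and 3592 IL, and at 0.983, 0.679 and 0.644 CPM in those of 791 CL, 791 IL and 784. Nipsnap2, on chromosome 5, was at 47.3 to 58.3 CPM in Ctrl libraries, at 48.8, 55.2 and 44.6 CPM in those of 788, 3592 CL and 3592 IL, and at 26.6, 21.5 and 25.6 CPM in those of 791 CL, 791 IL and 784. These genes were picked for their likeness to Rpl29, so the low values they share with it in mice 784 and 791 are no separate evidence.

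Gm8210 and Gm13841 were closest to each other (r = 0.99), and after that to Tmem87a (0.99 and 0.98), Itgad (0.98 and 0.97), Cap1 (0.98 and 0.98) and Ifi202b (0.97 and 0.98). Cap1, a regulator of actin turnover, was at 76.8 to 112 CPM in Ctrl and 634 to 807 CPM in cKO libraries, and Tmem87a at 2.84 to 5.99 CPM in Ctrl and 28.7 to 55.8 CPM in cKO libraries. Itgad, an integrin alpha chain gene, was at 0.101 to 0.573 CPM in Ctrl and 1.71 to 3.10 CPM in cKO libraries. Ifi202b, an interferon-inducible gene, was at 0.164 CPM at most in Ctrl and at 6.53 to 41.0 CPM in cKO libraries. Ifi202b shares chromosome 1 with Gm8210 at a distance of 130773 kb, and the other 3 lie on chromosomes that hold neither copy.

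Values of the genes nearest to the members follow. Of 13 neighbours, the 2 nearest on each side that passed the filter over all 14 libraries and Fhl2, 12 were tested in each genotype comparison and limma called 0 in either (2 in each with an unadjusted p under 0.05). Over all genes 0.873% were called in CL and 0.662% in IL, so a count of 0 among 12 does not set them apart from other genes. Next to Rpl29, Acy1 (1.41 kb away) had log2 fold changes of cKO over Ctrl of -0.18 (SE 0.17) in CL and 0.27 (SE 0.15) in IL, Abhd14a (8.48 kb) -0.53 (SE 0.23) and -0.48 (SE 0.22), Dusp7 (53.7 kb) 0.05 (SE 0.24) and -0.38 (SE 0.13), and Poc1a (78.9 kb) -0.69 (SE 0.30) and -0.41 (SE 0.22). Abhd14b, the next gene after Abhd14a and nearer to Rpl29 than Dusp7, is named here after its values were seen. Its mean was 2.42 ± 1.84 CPM in cKO CL (n = 3) against 7.42 ± 0.771 in Ctrl CL (n = 4), and 1.23 ± 1.89 CPM in cKO IL (n = 3) against 5.76 ± 0.960 in Ctrl IL (n = 4). Fhl2, the gene around Gm8210, was at 0.393 and 0.282 CPM in Ctrl CL and IL and at 0.399 and 0.437 CPM in cKO CL and IL (means), below Gm8210 in every cKO library. The genes beside Gm8210 (Tgfbrap1, AI597479, Nck2 and 1500015O10Rik) had log2 fold changes between -0.33 and 0.34, and those beside Gm13841 (Rab35, Bicdl1 and Cit) between -0.40 and 0.18 over both hemispheres. The fourth neighbour of Gm13841, Gm42471, was below the filter of both genotype comparisons.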

How the data were processed

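The genes and gene lists were chosen with earlier results of these data known. Per the labels and the study's methods, full-length cDNA libraries without strand information (Smart-Seq v4) were sequenced in pairs, and reads were aligned by the authors with STAR to mm10 and quantified in Partek Flow 8.0. How reads that match several genes were shared out is not given in the sources used here. The table deposited by the authors as counts held CPM, each library summing to 1e+06. Between 78.5 and 83.5% of its values under 100 reads were whole multiples of a step (tolerance 0.03 reads), which gave the depth, so no count model was used. The deposited tables of the authors' own comparisons (p-values, FDR, ratios, fold changes and group means) were not used.

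CPM were scaled by trimmed means (TMM without weights) and tested on log2(CPM + 1), pseudocount 1, with limma 3.58.1 (trend, R 4.3.3) within the groups compared, after a filter at the CPM of 10 reads at median depth in at least n libraries, n being the size of the smaller group, and 15 reads in total. A gene was called at a Benjamini-Hochberg adjusted p of 0.05 or less and a 1.2-fold change or more. The script was tested on simulated data. Sums and shares were compared between hemispheres by exact permutation tests over libraries, which leave the pairing within mice aside. Of 33939 identifiers, 33802 matched GENCODE M21 (GRCm38), from which sequences were aligned with BLAST+ 2.17.0 (E-value 1e-10). Besides Rpl29, both copies, their sum and share, the genes named were rows aligning with Rpl29, the 5 genes most alike to each member, the nearest 2 genes on each side that passed the filter over all 14 libraries, up to 3 called large-subunit genes per direction, and the 5 other parents whose copies' share differed most. Hemispheres of the same mouse number come from the same animal, so the mouse was used as a block in an alternative. Their deviations from the group means correlated at 0.18 to 0.61 in all 6 pairs, against -0.54 to 0.50 in 19 pairs of different mice (median -0.22). Between hemispheres the block was fixed and kept only mice with both libraries, which in cKO were 791 and 3592. In the other comparisons it was a random effect over all 14 libraries. Other alternatives were pseudocounts of 0.5 and 0.1, no scaling, upper-quartile and median-ratio scaling, no filter, a fit of all 14 libraries and leaving out each library. Leaving out both libraries of mouse 3546, the sum of 7 genes and the sum of both copies were added after seeing the data. p-values between genotypes rest on 4 mice against 3 libraries of each hemisphere. The gene deleted in cKO mice is not reported here.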

Additional observations from a re-analysis of the deposited data

Results flagged for a closer look

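Ctrl mouse 3546 stood apart from the other 3 Ctrl mice, its gap to the nearest of them taking more of the group's range than Dixon's 95% critical value for 4 samples. Rpl29 was at 31.4 CPM in its CL and 11.2 CPM in its IL library, and the sum of Rpl29, Gm8210 and Gm13841 had the same values, 31.4 and 11.2 CPM, since the copies were near 0. The sum of the 7 near-identical genes was 15.4 CPM in its IL library, and the large-subunit list without Rpl29 summed to 1590 CPM in its CL library. This IL library was also the shallowest, at 12.2 M (1e+06) reads. The part of depth in these values was not tested. Of 16 groups of 4 libraries looked at in this way 6 stood out, where chance gives about 1 in 20, and these values share the same libraries and genes.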

How the results depend on the processing

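The direction of the genotype differences of Rpl29, Gm8210 and Gm13841 held under all alternatives. This adds no support, since the genes were chosen on this contrast in the same libraries. The fitted values of the copies between genotypes depend on the pseudocount, since the Ctrl values are near 0, and are not bounds. With pseudocounts of 0.5 and 0.1 the log2 difference of Gm8210 was 5.21 and 7.50 in IL and 4.51 and 6.78 in CL, and that of Gm13841 was 4.82 and 6.46 in IL and 3.93 and 5.38 in CL. Injury effects on Rpl29 were unstable in sign. In Ctrl mice its log2 difference was -0.39 to 0.63 when single libraries were left out (0.37 without mouse 3546). In cKO mice it was -1.94 to -0.0352 with single libraries left out and 0.61 with the mouse as a block, which keeps mice 791 and 3592 only. The interaction was -1.89 to 0.0193 with single libraries left out. In cKO mice the injury difference of Gm8210 was 0.46 to 1.26 and that of Gm13841 0.63 to 1.13 when single libraries were left out, and Gm13841 passed the threshold in the fit of all 14 libraries (0.88). The copies added together were 11.1 to 22.6 CPM higher in IL when single libraries were left out. The mouse block changed no call of a member. The sum of the 3 genes differed between Ctrl hemispheres by -2.85 to 19.9 CPM and the sum of 7 by -3.55 to 25.1 CPM when single libraries were left out, and the share of the copies in cKO mice was 2.35 points lower in IL within mice (-2.35), against 16.8 higher between groups (7.16 to 35.9 with single libraries left out).

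Counts of genes called over the whole table also moved. For injury in Ctrl mice they were 1082, and 544 without the filter, 2103 with all 14 libraries in a single fit, 3358 with the mouse as a block and 480 to 1430 with single libraries left out. For injury in cKO mice they were 3738, and 1520 with all 14 libraries, 2273 with the mouse as a block (mice 791 and 3592 only) and 1877 to 3535 with single libraries left out. The interaction gave 0, 3 with a random effect of mouse and 0 to 1 with single libraries left out. Between genotypes in IL they were 112, and 67 without the filter, 188 with a random effect of mouse, 282 without mouse 3546 and 46 to 282 with single libraries left out. Between genotypes in CL they were 145, and 87 without the filter, 262 in the single fit, 291 with a random effect of mouse and 71 to 163 with single libraries left out. The cause of these shifts was not tested.

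Both copies have the same sequence, and how their shared reads were divided was not tested. With 3 against 3 libraries the smallest exact p is 0.1.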
